A study of Mus musculus with 18 samples.

Results

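The genes described here encode the proteins that build dense-core secretory granules and cut prohormones inside them. The 10 listed genes were Pcsk1n, Scg5, Pcsk1, Pcsk2, Cpe, Chga, Chgb, Scg2, Scg3 and Ptprn, and their members on the array were all probe sets annotated to one of these symbols. Of the 10 genes, 9 had a probe set (10 probe sets of 45101 in all), and no probe set was annotated to Pcsk2 in the table used here. The mean signal over all arrays was above 20, the level above which a gene was tested, for 8 of the 10 genes, against 11657 of 18194 genes on the whole array. The list was chosen by gene function with the signals of these arrays in view, among them those of Pcsk1n in IH28D against Ctrl28, so that comparison is given as a description and without p-values for the listed genes.

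Total RNA of the hippocampus of C57Bl/6 mice (C57BL/6J males according to the methods of the study) was hybridized to Affymetrix mouse 430 2.0 arrays, with 3 arrays in each of 6 groups. Mice were 10 weeks old at the start of intermittent hypoxia treatment (IHT), which ran for 8 h a day in cycles of 3 min, with nitrogen for 1 min and room air for 2 min, and lowered the inspired oxygen to 5% against 21% in room air. IH5D mice had 5 days of IHT, IH5DR2 mice had 5 days of IHT and then 64 h of normoxia, and IH28D mice had 28 days of IHT. The 12 m mice were reared to 12 months, and Ctrl mice were the control group with no stated rearing time. Ctrl28 mice were reared for 28 days under normoxia as the control of IH28D. The labels do not say which arrays were run together, so a batch that falls on 1 group cannot be told apart from that group. The sample numbers of the Ctrl28 arrays stand apart from the consecutive numbers of all other arrays. These numbers do not say when the arrays were run. The labels do not say whether each array held RNA of a separate mouse, so each p-value reflects only how far these arrays scatter, which may be technical.

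Peptide hormones and neuropeptides are made as long inactive precursors that are packed into granules together with the granins. There the proprotein convertases PC1/3 (Pcsk1) and PC2 (Pcsk2) cut the precursors at pairs of basic residues, and carboxypeptidase E (Cpe) trims the basic residues that are left. Each convertase has a small partner protein in the granule, proSAAS (Pcsk1n) for PC1/3 and 7B2 (Scg5) for PC2. In the hippocampus such granules carry, among others, the peptides of interneurons and the neurotrophins of principal cells.

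All values are signals that the authors computed with the MAS5 method and deposited as log2, given here unlogged in arbitrary units. The trimmed mean signal was the same on all arrays (100.03 to 100.04) and the median was 18.1 to 24.3. Signals of different probe sets cannot be set against each other, and in whole tissue fewer cells of a type and less RNA per cell cannot be told apart. By their means over all arrays, the 10 markers of hippocampal excitatory neurons were above the minimum, with summed signals of 6332 to 10635 on the 18 arrays. In 12 m the signals of Dsp (9.13 to 239.54), C1ql2 (14.7 to 228.29) and Prox1 (17.0 to 82.2) reached below the minimum. In the other groups the lowest signals of these genes were 176.76, 158.84 and 60.7. All other markers of this list stayed above the minimum on every array, with Spink8 as low as 29.45 in 12 m. Of 8 markers of the hypothalamus, a tissue rich in these granules, 5 were above the minimum. Hcrt, Avp and Pomc were so only just, with means of 22.95, 21.94 and 22.4, within the range of the array medians. Some arrays stood apart. The log2 gap between 3' and 5' control probe sets of Actb and Gapdh, which widens as RNA degrades, was 2.39, 0.82 and 0.97 in Ctrl28 replicates 1, 2 and 3 and 0.62 to 0.86 in 12 m, against 0.33 to 0.53 in the other groups. Neocortex markers summed to 6221 in 12 m replicate 3 and to at most 2700 on the other arrays, and choroid plexus markers to 727 to 1779 in 12 m, 17625 to 21957 in Ctrl28 and 1873 to 19578 in Ctrl.

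The promoters of several granule genes hold a cAMP response element (CRE), the site of the factor CREB. Stretches with the full element, with its core alone and with neither are shown, since the listed genes differed in this. Element and signal did not go together throughout. Chgb and Scg2, with the full element, had their lowest mean in Ctrl as deposited, but so did Scg3 with the core alone, and Pcsk1, with the full element and too dim to be tested, had its lowest mean in IH28D. The windows are those of RefSeq (GRCm38.p6), from 250 bases before to 50 bases after the start of the gene, and 9 of the 10 genes, all but Cpe, had one. Capitals mark the 8-letter element TGACGTCA or its 5-letter core TGACG, searched on both strands. The element includes the core. The stretches are of Chgb (chr2:132781544-132781603, plus strand), Scg2 (chr1:79440061-79440120, minus strand), Pcsk1 (chr13:75089753-75089812, plus strand), Chga (chr12:102554871-102554927, plus strand) and Pcsk1n (chrX:7919762-7919821, plus strand).
Chgb: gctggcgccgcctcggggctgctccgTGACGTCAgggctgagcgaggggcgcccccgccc
Scg2: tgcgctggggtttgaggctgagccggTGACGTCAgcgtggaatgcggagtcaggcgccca
Pcsk1: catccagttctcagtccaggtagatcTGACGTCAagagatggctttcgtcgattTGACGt
Chga: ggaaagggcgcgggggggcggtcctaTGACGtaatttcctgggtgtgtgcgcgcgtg
Pcsk1n: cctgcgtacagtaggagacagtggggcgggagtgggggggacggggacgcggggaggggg

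The full element lay 72 to 65 bases before the start of Chgb, 68 to 61 bases before that of Scg2 and 78 to 71 bases before that of Pcsk1. These were 3 of the 9 genes, and 1.79% of all 32851 windows of this length held it. Pcsk1 had the core a second time, 50 to 46 bases before its start. Chga had the core alone, 44 to 40 bases before its start. The core was found in 8 of the 9 genes, in all but Pcsk1n, and in 20.8% of all windows. These matches describe letters in a window and are not evidence of binding.

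Pcsk1n, whose product proSAAS inhibits PC1/3, varied most among the listed genes that were tested. Its signals were 1104, 1220 and 1081 in IH5D, 1282, 1406 and 1384 in IH5DR2, and 1453, 1052 and 1300 in IH28D. They were 747, 714 and 887 in 12 m and 423, 337 and 321 in Ctrl28, against 1350, 1578 and 1541 in Ctrl. All Ctrl28 arrays lay below all 12 m arrays, and all 12 m arrays below all arrays of the other 4 groups. Neighbours in the order of the means of IH5D, IH28D, IH5DR2 and Ctrl overlapped.

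Ptprn encodes IA-2, a phosphatase-like protein of the granule membrane. Its signals were 535, 480 and 494 in IH5D, 596, 599 and 577 in IH5DR2, and 473, 480 and 559 in IH28D. They were 424, 351 and 494 in 12 m and 366, 170 and 267 in Ctrl28, against 592, 632 and 522 in Ctrl. Ctrl28 was again lowest and 12 m next, but here Ctrl28 replicate 1 lay above 12 m replicate 2, so that these 2 groups overlapped. Over the 18 arrays the log2 signals of Ptprn and Pcsk1n had a Pearson r of 0.904, and of 0.464 once each group's mean was taken off. The arrays share the group differences and the gap in RNA quality, so this r is a description.

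The granins fell into opposite patterns. Chga (chromogranin A) had signals of 419, 354 and 427 in IH5D, 430, 328 and 409 in IH5DR2, and 388, 268 and 403 in IH28D. It had 316, 336 and 355 in 12 m and 507, 296 and 263 in Ctrl28, against 447, 572 and 475 in Ctrl. Ctrl had the highest mean, and its arrays lay above those of IH5D, IH5DR2, IH28D and 12 m. Ctrl28 replicate 1, the array with the widest gap between 3' and 5' probe sets, was the one array outside Ctrl above 447.

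Chgb (chromogranin B) had its lowest mean in Ctrl. Its signals were 3236, 2605 and 3505 in IH5D, 2934, 2778 and 3277 in IH5DR2, and 3018, 3099 and 3619 in IH28D. They were 3305, 3593 and 2737 in 12 m and 3330, 3220 and 3553 in Ctrl28, against 2619, 2291 and 2767 in Ctrl. The arrays of IH5DR2, IH28D and Ctrl28 all lay above Ctrl, whereas IH5D and 12 m each had 1 array within its range.

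Scg3 (secretogranin III), a granin that binds chromogranin A and cholesterol-rich granule membrane, was also lowest in Ctrl on average. It had 1657, 1603 and 1845 in IH5D, 1572, 1676 and 1755 in IH5DR2, and 1765, 1585 and 1756 in IH28D. It had 1867, 1891 and 2081 in 12 m and 1447, 1816 and 1811 in Ctrl28, against 1504, 1411 and 1467 in Ctrl. All arrays of the other groups were above Ctrl with the exception of Ctrl28 replicate 1. The 12 m arrays were the highest 3 of all 18.

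Scg2 (secretogranin II), the precursor of secretoneurin, varied little. Its group means were 1023 ± 81.9 in IH5D, 1032 ± 66.3 in IH5DR2, 1062 ± 146 in IH28D, 1034 ± 77.9 in 12 m, 1044 ± 151 in Ctrl28 and 934 ± 47.8 in Ctrl (SD, n = 3 each). Ctrl had the lowest mean here as well, and its range of 899 to 988 overlapped those of the 5 other groups. After each array was centred on its median, Scg2 in 12 m was below Ctrl instead (-0.09 on the log2 scale).

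Scg5 and Cpe had group means close to each other as deposited. Scg5, the chaperone of PC2, had means of 1817 ± 58.9 in IH5D, 1778 ± 66.7 in IH5DR2, 1699 ± 147 in IH28D, 1675 ± 335 in 12 m, 1680 ± 54.6 in Ctrl28 and 1871 ± 83.9 in Ctrl. The wide spread in 12 m came from replicate 3 with 2051, the array with high neocortex markers, beside 1563 and 1410. Cpe had means of 9165 ± 151 in IH5D, 8285 ± 265 in IH5DR2, 8192 ± 158 in IH28D, 8498 ± 827 in 12 m, 8914 ± 388 in Ctrl28 and 9033 ± 1274 in Ctrl. Its Ctrl arrays alone ran from 7889 to 10406, a range that held every other array except 12 m replicate 3 with 7621.

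**Figure D1:**
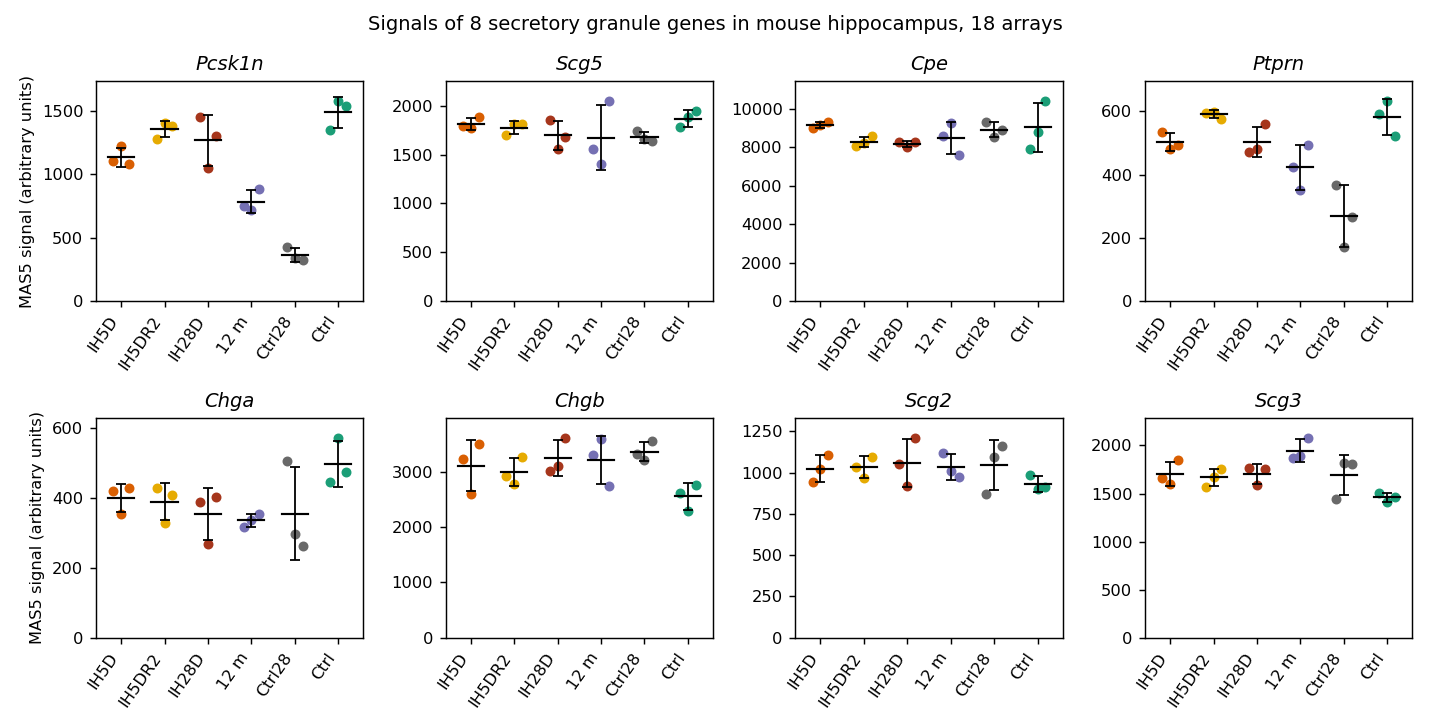
MAS5 signals (arbitrary units, axes from 0) of the 8 tested genes on each of the 18 arrays. Points are arrays in the order of their replicate numbers, horizontal lines are group means and bars are the SD of 3 arrays. Pcsk1n and Ptprn were lowest in Ctrl28 and next lowest in 12 m, and Chgb, Scg2 and Scg3 had their lowest mean in Ctrl, for Scg2 not after median centring.

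Pcsk1, the convertase itself, and the second probe set of Cpe were not tested. Pcsk1 had group means of 16.3 ± 4.25 in IH5D, 16.5 ± 6.34 in IH5DR2, 8.80 ± 5.08 in IH28D, 18.7 ± 1.38 in 12 m, 20.5 ± 3.97 in Ctrl28 and 17.5 ± 4.67 in Ctrl, near or below the median signal of an array. The second Cpe probe set had means of 10.7 (Ctrl28) to 22.1 (12 m) and carries no usable level beside the first.

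After 5 days of IHT, no listed gene passed the test. Pcsk1n had a log2 change of -0.39 (SE 0.137, adjusted p = 0.0833) in IH5D against Ctrl, with all IH5D arrays below all Ctrl arrays. Chgb had 0.28 (SE 0.131, adjusted p = 0.171) and Scg3 0.22 (SE 0.109, adjusted p = 0.191). In limma 0 of 8 genes passed an adjusted p of 0.05, against 6.52% of all 11657 genes, and 2 had an unadjusted p below it. The unmoderated test per gene that the methods of the study name called 1 of 8 at an unadjusted p below 0.05, and 0 after adjustment. Those methods give a threshold of 0.05 and name no adjustment. The groups did not overlap for 3 of 8 genes (Pcsk1n and Chga lower, Scg3 higher), against 41.4% of all genes. The median change of the 8 genes was -0.006, against -0.095 over all genes. Same-numbered arrays of IH5D and Ctrl deviated together, and with the replicate number as a block 434 genes passed in place of 760, none of them listed. That block was fitted over all groups together, and the changes given above come from the fit without it. Without Ctrl28 replicate 1, which enters only the shared estimate of the spread, Pcsk1n passed with an adjusted p of 0.023.

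After 64 h of recovery no listed gene passed either. In IH5DR2 against Ctrl, Pcsk1n had a log2 change of -0.13 (SE 0.137), Ptprn 0.03 (SE 0.197), Chga -0.36 (SE 0.207), Chgb 0.23 (SE 0.131) and Scg3 0.19 (SE 0.109). limma called 0 of 8, against 5.61% of all genes, and 0 had an unadjusted p below 0.05 (the methods' test: 1 unadjusted, 0 adjusted). No overlap was seen for 3 of 8 (Chgb and Scg3 higher, Chga lower), against 40.8%. In the direct comparison of IH5DR2 with IH5D, Pcsk1n had 0.26 (95% interval -0.03 to 0.55) and Ptprn 0.23 (-0.18 to 0.65). All IH5DR2 arrays lay above all IH5D arrays for these genes and below for Cpe, 3 of 8 genes against 14.8% of all. limma called 0 of 8 there and 0% of all genes, with 0 of 8 and 418 of 11657 at an unadjusted p below 0.05. The methods' test called 0 of all genes after adjustment, and 3 of 8 listed genes before it.

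After 28 days the picture depended on the control. Against Ctrl28, the control of the same rearing time, Pcsk1n was 3.5-fold higher in IH28D (log2 change 1.81, SE 0.137) and Ptprn 1.97-fold (0.98, SE 0.197). The other 6 genes had log2 changes of -0.12 (Cpe) to 0.03 (Chga). By the rule of the other comparisons 2 of 8 genes would be counted, beside 8.50% of all, and 3 of 8 did not overlap (23.6% of all), and nothing is read from these counts, since such values were in view when the list was chosen. Cpe, 1 of the 3, was lower as deposited and higher by 0.11 on the log2 scale after quantile normalization. Leaving out each of the 18 arrays in turn gave 1.71 to 1.94 for Pcsk1n, and with the gap between 3' and 5' probe sets as a covariate it was 2.03. For Ptprn the range over the same fits was 0.69 to 1.24. With the gap as a covariate, Ptprn had 1.50 and Chga 0.57.

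Against Ctrl, no listed gene passed in IH28D. Pcsk1n had a log2 change of -0.24 (SE 0.137), Ptprn -0.21 (SE 0.197), Chga -0.51 (SE 0.207, adjusted p = 0.0652) and Chgb 0.34 (SE 0.131, adjusted p = 0.0527). limma called 0 of 8 genes, against 33.3% of all, while 2 (Chga and Chgb) had an unadjusted p below 0.05. The methods' test called 2 of 8 before adjustment and 0 after it. The arrays did not overlap for 3 of 8 (Chga lower, Chgb and Scg3 higher), against 52.6% of all. Chga, Chgb and Scg3 passed without Ctrl28 replicate 1.

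The controls themselves differed in these genes. In Ctrl28 against Ctrl, Pcsk1n fell by 2.06 on the log2 scale (SE 0.137), a level of 24.2% of the Ctrl mean. Ptprn had -1.19 (SE 0.197, adjusted p = 0.000238), Chga -0.54 (SE 0.207, adjusted p = 0.048) and Chgb 0.40 (SE 0.131, adjusted p = 0.0239). These were 4 of 8 genes called and 4 without overlap for Pcsk1n, Ptprn and Scg5 (lower) and Chgb (higher), against 37.8% and 39.6% of all genes. The Ctrl28 signals of Pcsk1n were in view when the list was chosen. It is therefore given without a p-value, and its place in these counts is a description. The whole list was chosen with the signals of these arrays in view. The p-values of Ptprn, Chga and Chgb take no account of this choice. Ptprn passed without each array in turn, and Chga was lost in 13 of the 18 fits that left out 1 array, with -0.83 without Ctrl28 replicate 1 (where it passed) to -0.36 without Ctrl28 replicate 3. The Ctrl28 arrays also had the wide gap between 3' and 5' probe sets, and with it as a covariate Pcsk1n had -2.26, Ptprn -1.68 and Chga -1.06. All Ctrl28 arrays exceeded all Ctrl arrays in this gap, and its part in the result cannot be told apart from that of the group. The 5 comparisons against Ctrl share its 3 arrays, and those of IH28D and 12 m against Ctrl28 share the 3 Ctrl28 arrays.

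As deposited, the listed genes differed between 12 m and Ctrl in both directions. In 12 m against Ctrl, Pcsk1n fell by 0.93 on the log2 scale (SE 0.137, adjusted p = 6.73e-05) and Chga by 0.56 (SE 0.207, adjusted p = 0.0306). Scg3 rose by 0.41 (SE 0.109, adjusted p = 0.00465) and Chgb by 0.32 (SE 0.131, adjusted p = 0.0466). Ptprn had -0.47 (SE 0.197, adjusted p = 0.0529), and Scg5, Cpe and Scg2 had -0.18, -0.08 and 0.15. The 4 of 8 genes called compare with 53.3% of all genes, and the 4 of 8 without overlap (Pcsk1n, Chga and Ptprn lower, Scg3 higher) with 62.9%. Of the calls of all genes 40.7% were higher in 12 m, or 26.2% after each array was centred on its median. The median change of all genes was -0.23 as deposited and -0.48 after centring. Relative to it, Scg3 stood at 0.65, Chgb at 0.56, Chga at -0.33 and Pcsk1n at -0.70, and centring leaves these values as they are by construction. After quantile normalization they were 0.94, 0.90, -0.23 and -0.48. As plain changes after centring Scg3 had 0.17 (adjusted p = 0.25) and Chgb 0.08 (adjusted p = 0.663), while Ptprn passed with -0.71 (adjusted p = 0.0123) and Scg5 with -0.42 (adjusted p = 0.0212), and Cpe had -0.32 (adjusted p = 0.0505). With array weights Ptprn (-0.52, adjusted p = 0.012) and Scg5 (-0.31, adjusted p = 0.0102) passed as well. Pcsk1n and Scg3 passed without each of the 18 arrays in turn, whereas Chgb was lost in 12 of these 18 fits and Chga in 4.

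Other measures differed between 12 m and Ctrl too. Markers of hippocampal excitatory neurons (10 of 10 above the minimum by their mean) summed to 6332 to 8424 in 12 m against 8495 to 9680 in Ctrl. Of these, Dsp, C1ql2 and Prox1 reached below the minimum in 12 m. Markers of choroid plexus (9 of 10 with a probe set) summed to 727 to 1779 in 12 m against 1873 to 19578 in Ctrl. Astrocyte markers (7 of 7 above the minimum) summed to 10504 to 11135 in 12 m against 7826 to 8642 in Ctrl. Microglia markers (7 of 7) summed to 2304 to 2562 in 12 m against 3015 to 3759 in Ctrl, and those of thalamus and habenula (7 of 7) to 434 to 638 against 690 to 806. The astrocyte sums were thus higher in 12 m with no overlap, and the microglia and thalamus sums lower, but bright genes weigh most in a sum. Gene by gene, 2 astrocyte markers rose and 2 fell, with a median log2 change of -0.05 (-0.23 over all genes). Of the microglia markers 1 rose and 4 fell, and of those of thalamus and habenula 1 rose and 2 fell. Of the excitatory neuron markers 1 rose and 4 fell (of all genes, 21.7% rose and 31.6% fell). The gap between 3' and 5' probe sets was 0.62 to 0.86 in 12 m against 0.34 to 0.47 in Ctrl. With it as a covariate the changes were -1.0 for Pcsk1n, -0.74 for Chga and 0.48 for Scg3, and Ptprn passed with -0.64 (adjusted p = 0.00206). Without 12 m replicate 3, the array with high neocortex markers, Scg5 passed with -0.33 (adjusted p = 0.0181). The part of the marker differences in these results was not tested.

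Set against Ctrl28, 12 m was the higher group for Pcsk1n (log2 change 1.12, SE 0.137) and Ptprn (0.72, SE 0.197, adjusted p = 0.0209). These were 2 of 8 genes called, against 16.3% of all, and 2 of 8 without overlap for Pcsk1n and Scg3, against 31.2%. Pcsk1n enters these counts as a description too, since its Ctrl28 signals were in view when the list was chosen. The p-value of Ptprn takes no account of that choice. Ptprn did not pass without 12 m replicate 3 (0.60) or Ctrl28 replicate 2 (0.42). The other 6 genes had -0.08 (Chgb) to 0.21 (Scg3).

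**Figure D2:**
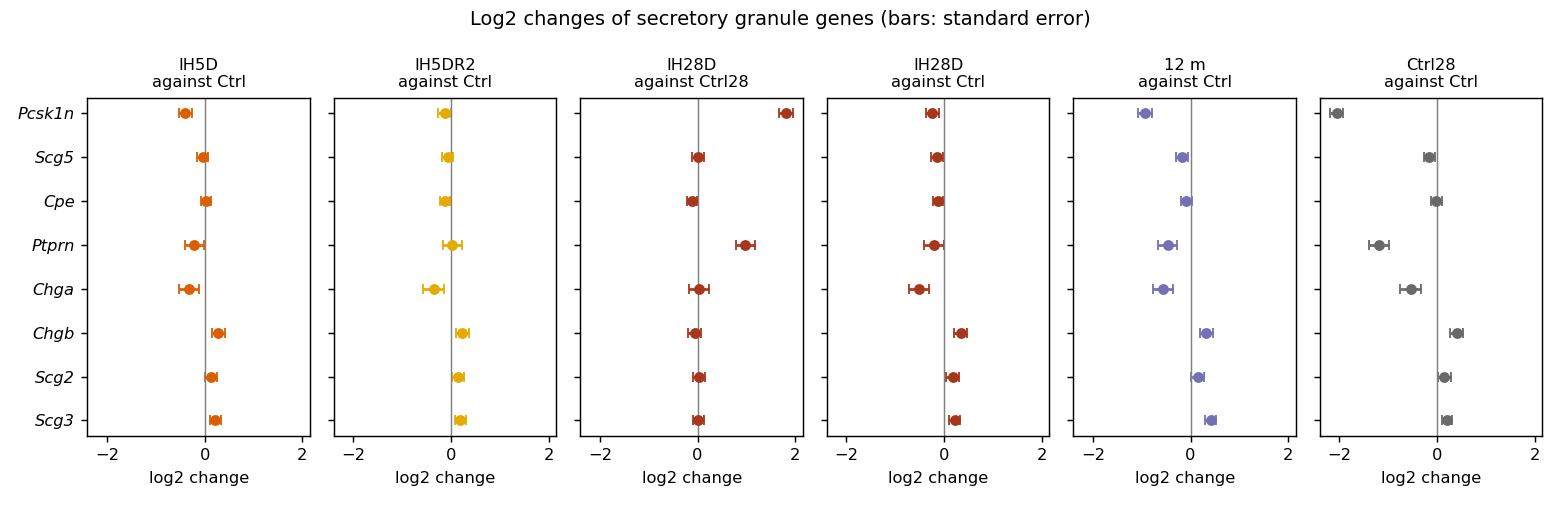
Log2 change (x axis) of each of the 8 tested genes in 6 comparisons, with the standard error of the limma fit as bars. Pcsk1n lay at 1.81 in IH28D against Ctrl28 and at -0.24 in IH28D against Ctrl, while Chgb, Scg2 and Scg3 lay above 0 and Chga below 0 in every comparison with Ctrl, except that Scg2 in 12 m lay at -0.09 after median centring.

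Other genes of the pathway were counted in 4 lists. In 12 m against Ctrl the median log2 change was -0.42 for convertases, -0.44 for genes of peptide trimming, -0.31 for genes of granule formation and -0.54 for precursors, beside -0.23 over all genes. Of 6 tested convertases outside the list, 0 rose and 3 fell in 12 m against Ctrl, among them Furin (-0.88, SE 0.221, adjusted p = 0.00344), the convertase of the constitutive secretory route. Of all genes 21.7% rose and 31.6% fell there. In Ctrl28 against Ctrl 0 convertases rose and 2 fell, beside 16.9% and 21% of all genes, with Pcsk6 at -1.14 (SE 0.157, adjusted p = 5.43e-05). Pcsk6 also fell in IH5DR2 against Ctrl (-0.73, adjusted p = 0.022), the one convertase of 6 called there, and none was called in IH5D. Of all genes 4.38% rose and 1.24% fell in IH5DR2.

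Of 10 tested genes of peptide trimming and modification, 0 rose and 4 fell both in 12 m and in Ctrl28 against Ctrl, to be read beside the same shares of all genes. Ctsl, a protease that also cuts prohormones, averaged 625 ± 40.0 in 12 m and 1076 ± 121 in Ctrl (adjusted p = 0.00184). Pam, which amidates the ends of peptides, averaged 147 ± 58.3 in Ctrl28 and 262 ± 25.8 in Ctrl (adjusted p = 0.00704). None of the 10 was called after IH5D or IH5DR2.

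Of 19 tested genes of granule formation and release, 5 rose and 7 fell in 12 m, and 2 rose and 5 fell in Ctrl28 (of all genes, 21.7% rose and 31.6% fell in 12 m and 16.9% and 21% in Ctrl28). In IH5D and in IH5DR2 against Ctrl 0 rose and 1 fell each, while 1.12% and 1.24% of all genes fell. The gene called in IH5DR2 was Pick1 (-0.75, SE 0.18, adjusted p = 0.0286 in limma). Hid1, needed for granule biogenesis at the trans-Golgi, was called in every comparison of IH5D, IH28D, 12 m and Ctrl28 with Ctrl. It averaged 302 ± 24.1 in IH5D, 306 ± 30.4 in IH28D, 253 ± 18.4 in 12 m and 163 ± 27.0 in Ctrl28, against 445 ± 65.3 in Ctrl, so that Ctrl28 was lowest, as for Pcsk1n. Rab27b, a GTPase of granule docking, rose in 12 m (1.33, SE 0.21, adjusted p = 0.000109), as did Ccdc186, a granule maturation factor (1.62, SE 0.269, adjusted p = 0.000166). Ptprn2, the paralogue of Ptprn, fell in 12 m (-0.54, SE 0.12, adjusted p = 0.00131).

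Of 21 tested precursors, 2 rose and 4 fell in 12 m, 1 rose and 7 fell in Ctrl28, 2 rose and 1 fell in IH28D against Ctrl, and 0 were called in IH5D or IH5DR2. In IH28D against Ctrl 17.5% of all genes rose and 15.8% fell, and the shares in 12 m and Ctrl28 were those given above. Nucb2, the precursor of nesfatin, rose in 12 m, Ctrl28 and IH28D, with means of 80.6 ± 5.94, 113 ± 8.56 and 85.5 ± 11.2 against 53.8 ± 17.6 in Ctrl. Pnoc, the precursor of nociceptin, averaged 58.2 ± 9.03 in 12 m and 68.3 ± 8.35 in Ctrl28, against 116 ± 26.1 in Ctrl. Cck, an abundant peptide precursor of the hippocampus, averaged 2330 ± 114 in IH28D and 2232 ± 676 in Ctrl28, against 3107 ± 282 in Ctrl.

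In IH28D against Ctrl28, where 6.06% of all genes rose and 2.44% fell, 0 of the convertases and precursors were called. Of the other lists, 1 of 10 genes of peptide trimming and 1 of 19 of granule formation rose. These were Tpst2, a sulfotransferase of secreted proteins, with 112 ± 4.41 in IH28D and 81.7 ± 3.53 in Ctrl28 (adjusted p = 0.0299), and Hid1 (log2 change 0.92, SE 0.145, adjusted p = 0.000752). Against Ctrl, with 142 ± 13.3, Tpst2 was lower both in IH28D (-0.34, adjusted p = 0.0442) and in Ctrl28 (-0.80, adjusted p = 0.000144). In IH28D against Ctrl 0 convertases rose and 2 fell, 0 genes of peptide trimming rose and 2 fell, and 3 genes of granule formation rose and 4 fell. Of all genes 17.5% rose and 15.8% fell there.

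The pattern of Pcsk1n was shared by genes outside the pathway. The highest Pearson correlations with it over the 18 arrays were those of Cdc37 (0.984), Cend1 (0.981), Tecr (0.981), Pkm (0.977) and Rnf167 (0.977), and of 0.594 to 0.755 once group means were taken off. In Ctrl28 these 5 genes stood at 27.5% to 39.3% of their Ctrl mean, and Pcsk1n at 24.2%. In 12 m they stood at 58.7% to 66.0%, and Pcsk1n at 52.5%. The genes closest to the mean of the 8 listed genes were Golph3 (0.812), Tmem44 (0.774) and Abcc8 (0.767). The 18 arrays share group and RNA quality, and these values are descriptions.

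**Figure D3:**
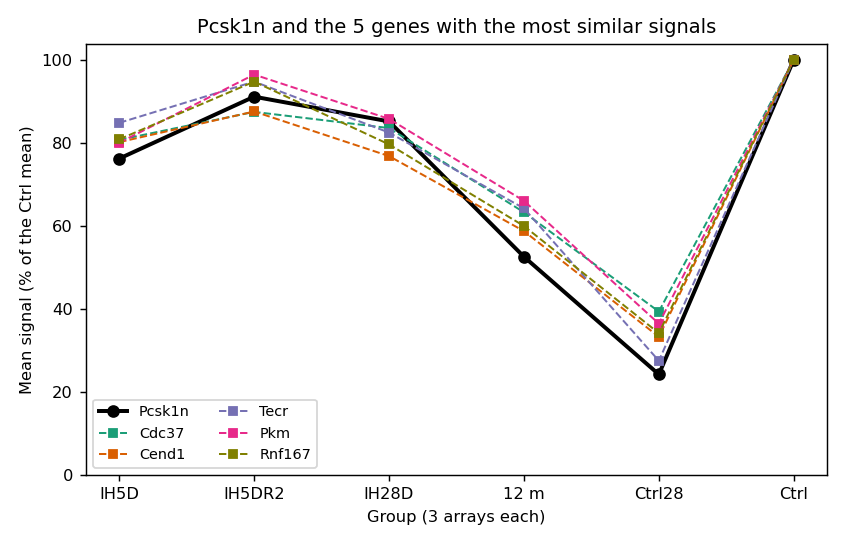
Mean signal of 3 arrays per group as percent of the Ctrl mean (y axis, from 0) for Pcsk1n (solid line) and the 5 genes most correlated with it (dashed). All 6 genes were lowest in Ctrl28 and next lowest in 12 m.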

How the data were processed

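Signals of 18 Affymetrix 430 2.0 arrays were used. The authors computed them with MAS5 and deposited them as log2 values; other settings of this step are not given in the sources used here. Of 45101 probe sets, 64 were manufacturer's controls, 34958 were annotated to 1 gene, 932 to several and 9147 to none, and only those of 1 gene were used. Genes with a mean unlogged signal above 20 were kept (11657), each by its probe set of highest mean signal. In R 4.3.3 with limma 3.58.1 one linear model with group means, trended moderated variances and 12 residual degrees of freedom gave log2 changes, standard errors and p-values, adjusted over all genes (Benjamini-Hochberg). A gene rose or fell where the adjusted p was below 0.05. Figures were drawn with matplotlib 3.10.9 in Python 3.11.15. The model was also run on simulated data that took their means and spreads from these arrays. The number of arrays limits precision, since array signals carry no counting depth.

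The listed genes, the lists of other pathway genes and the marker lists were chosen with earlier results of these data known. Named genes were all listed genes, the 5 genes most correlated with Pcsk1n and the 3 most correlated with the mean of the listed genes. Other pathway genes were named from among the 2 called genes of smallest p per pathway list, direction and comparison, and not all of these are named. Same-numbered arrays of IH5D and Ctrl deviated together (correlations of 0.153, 0.289 and 0.239), which no label states, so their numbers were taken to pair them; in the other comparisons at least 1 number had a correlation of 0.1 or less. Alternatives were quantile normalization, median centring, no minimum signal, the mean of all probe sets, only the groups compared, no variance trend, array weights, a covariate for the 3' to 5' gap, a replicate block, the methods' Welch test and leaving out each array. Leaving out all Ctrl28 arrays was added after seeing the data.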

Additional observations from a re-analysis of the deposited data

Results flagged for a closer look

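Pcsk1n had log2 changes of opposite sign after 28 and 5 days of IHT when each was set against its own control. Every IH28D array lay above every Ctrl28 array (log2 change 1.81), and every IH5D array lay below every Ctrl array (-0.39, adjusted p = 0.0833 in limma, which did not pass). The changes differed by 2.21 on the log2 scale. Against Ctrl for both, they had the same sign (-0.24 and -0.39), and the controls themselves differed (Ctrl28 against Ctrl, -2.06). This difference was not tested, since the first of the comparisons took part in the choice of the gene.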

How the results depend on the processing

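With the replicate number as a block the number of listed genes called was 0 in IH5D, 0 in IH5DR2 and 0 in IH28D against Ctrl, 2 in IH28D and 2 in 12 m against Ctrl28, 4 in Ctrl28 against Ctrl and 5 in 12 m against Ctrl. The addition there was Ptprn (adjusted p = 0.0492), and the block changed no other call of a listed gene.

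Counts in IH5DR2 against Ctrl and against IH5D were 0 in every alternative. In IH5D against Ctrl (0 called) the count was 1 with only the groups compared, with the gap covariate or without the 3 Ctrl28 arrays, 2 with array weights, and 0 to 1 with single arrays left out (1 without Ctrl28 replicate 1). In IH28D against Ctrl (0) it was 2 with quantile normalization, only the groups compared, array weights, the gap covariate or no Ctrl28 arrays, and 0 to 3 with single arrays left out (3 without Ctrl28 replicate 1, and 1 without IH5D replicate 2, 12 m replicate 3 or Ctrl28 replicate 3). In IH28D against Ctrl28 (2), where the counts are a description and no sign of stability, it was 1 with only the groups compared, 0 by the Welch test and 2 to 2 with single arrays left out. In 12 m against Ctrl (4) it was 6 with array weights, 2 by the Welch test and 2 to 6 with single arrays left out (2 without 12 m replicate 1, 12 m replicate 2 or Ctrl replicate 2). In Ctrl28 against Ctrl (4) it was 2 with median centring, no minimum signal or only the groups compared, 7 with array weights, 0 by the Welch test and 2 to 5 with single arrays left out (2 without Ctrl28 replicate 3 or Ctrl replicate 2). In 12 m against Ctrl28 (2) it was 3 with quantile normalization (Scg3 added), 1 with median centring or only the groups compared, 0 by the Welch test and 1 to 2 with single arrays left out (1 without 12 m replicate 3 or Ctrl28 replicate 2). No called change of a listed gene turned its direction in any alternative, while small changes of Cpe, Scg2, Scg5, Chga, Chgb, Scg3 and Ptprn that did not pass turned under a scaling. In every comparison that uses Ctrl28, Pcsk1n enters these counts as a description. Before adjustment the Welch test called 3 of 8 listed genes in 12 m and 3 of 8 in Ctrl28, each against Ctrl. The causes were not tested.

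Counts over all genes moved more. Leaving out single arrays gave 0 to 2727 genes in IH5D and 0 to 2594 in IH5DR2 against Ctrl (760 and 654 with all arrays), 463 to 1820 in IH28D against Ctrl28 (991), 1659 to 5200 in IH28D against Ctrl (3882) and 2831 to 6211 in Ctrl28 against Ctrl (4409), and the Welch test gave 1666 genes in 12 m against Ctrl (6209), 1 in 12 m against Ctrl28 (1905) and 0 in the other 6 comparisons. After median centring the share of calls that were higher was 38.7% in IH28D against Ctrl (52.6% as deposited) and 20.6% in 12 m against Ctrl28 (49.2%). With 3 arrays a group, an exact permutation test of a single value cannot go below 0.1.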
